A study of Mus musculus with 24 samples.

Results

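The levels of 9 transcription factors that guide skeletal muscle cells from progenitor to fibre were followed across the differentiation of C2C12 cells and their treatment with dexamethasone. They are the 4 myogenic regulatory factors Myod1, Myog, Myf5 and Myf6, the paired-box factor Pax7, the homeobox factor Six4, and the 3 Mef2 factors Mef2a, Mef2c and Mef2d. The genes were taken by name from the deposited tables, joined by Ensembl identifier, and are 9 of the 48544 genes listed. C2C12 is an established mouse myoblast line, clonal in origin, whose cells leave the cell cycle and fuse into myotubes when serum is lowered. Polyadenylated RNA was sequenced in 24 libraries, and levels are given in TPM, a share of a library's transcripts scaled by transcript length, that allows genes to be compared within a library.

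The 6 groups had 4 libraries each, and all cells were of wild-type genotype. Dexamethasone, a synthetic glucocorticoid used to make cultured myotubes waste, was given at 100 µM from day 7, and its libraries were taken after 24 h (day 8) or 72 h (day 10). The vehicle groups were kept for the same 24 h or 72 h in medium with 1% ethanol. Per the labels, ethanol is named for the vehicle medium alone. Day 7 myotubes were taken before either medium was added, and all 5 groups of myotubes were in 2% fetal bovine serum. Day 0 myoblasts were in 10% serum. A comparison of day 7 with day 0 therefore joins differentiation with a change of serum, and both stand in every such value. Nothing in the labels ties a replicate to a culture of its own, and the spread behind the p-values may therefore be technical. Bulk RNA was measured, so fewer cells of a type and less RNA per cell cannot be told apart.

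Myod1 and Myf5 are basic helix-loop-helix factors that commit cells to the muscle lineage, Myog drives their terminal differentiation, and Myf6, also called MRF4, is the member best known from differentiated fibres. Each pairs with an E protein and binds E-boxes in muscle genes. Pax7 marks satellite cells, the stem cells of adult muscle, and acts before these factors. Six4 acts with Eya coactivators upstream of the myogenic factors, and Mef2 proteins bind A/T-rich sites in muscle genes alongside the myogenic factors.

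Reference promoters, from 250 bases before to 50 bases after a gene's start, were found for 7 of the 9 genes and not for Myod1 or Myf6. The windows of Myog and Myf5 are shown because these are the myogenic factors among the 7, and the RNA of both moved strongly between groups. Sequences are from RefSeq on build GRCm38.p6 and run 5′ to 3′ along the gene's strand. Capitals mark E-boxes (CANNTG) and a loose form of the core of a Mef2 site (CTANNNNTA), each searched on both strands. N is any letter, so a match need not be A/T-rich. Myog lies on the plus strand at chr1:134289754-134290053, and Myf5 on the minus strand at chr10:107486085-107486384.
Myog: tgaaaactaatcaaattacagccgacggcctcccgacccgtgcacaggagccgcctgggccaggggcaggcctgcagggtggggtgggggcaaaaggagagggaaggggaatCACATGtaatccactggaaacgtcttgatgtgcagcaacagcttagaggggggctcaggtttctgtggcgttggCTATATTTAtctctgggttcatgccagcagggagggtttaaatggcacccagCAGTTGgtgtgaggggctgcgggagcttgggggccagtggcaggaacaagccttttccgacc
Myf5: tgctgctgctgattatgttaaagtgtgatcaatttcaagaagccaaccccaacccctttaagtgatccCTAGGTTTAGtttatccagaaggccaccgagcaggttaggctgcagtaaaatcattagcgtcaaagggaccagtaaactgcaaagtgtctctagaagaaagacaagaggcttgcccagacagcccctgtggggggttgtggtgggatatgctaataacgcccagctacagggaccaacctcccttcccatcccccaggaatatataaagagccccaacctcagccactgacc
The Myog window held 2 E-boxes, CACATG starting 138 bases before the start and CAGTTG starting 12 bases before it, and 1 Mef2 core, CTATATTTA, starting 64 bases before it. The Myf5 window held no E-box and 2 matches to the loose Mef2 pattern, which overlap as 1 run of letters. Both have GG between their fixed letters, whereas CTATATTTA has only A and T there. An E-box was found in 72.3% of 32851 reference promoter windows and a match to the loose Mef2 pattern in 21.0%, so these matches are common. No window of the 7 genes held the glucocorticoid receptor palindrome, searched as GNACA and TGTNC with NNN between them, which 0.475% of all windows held. These matches describe letters only.

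**Figure D1:**
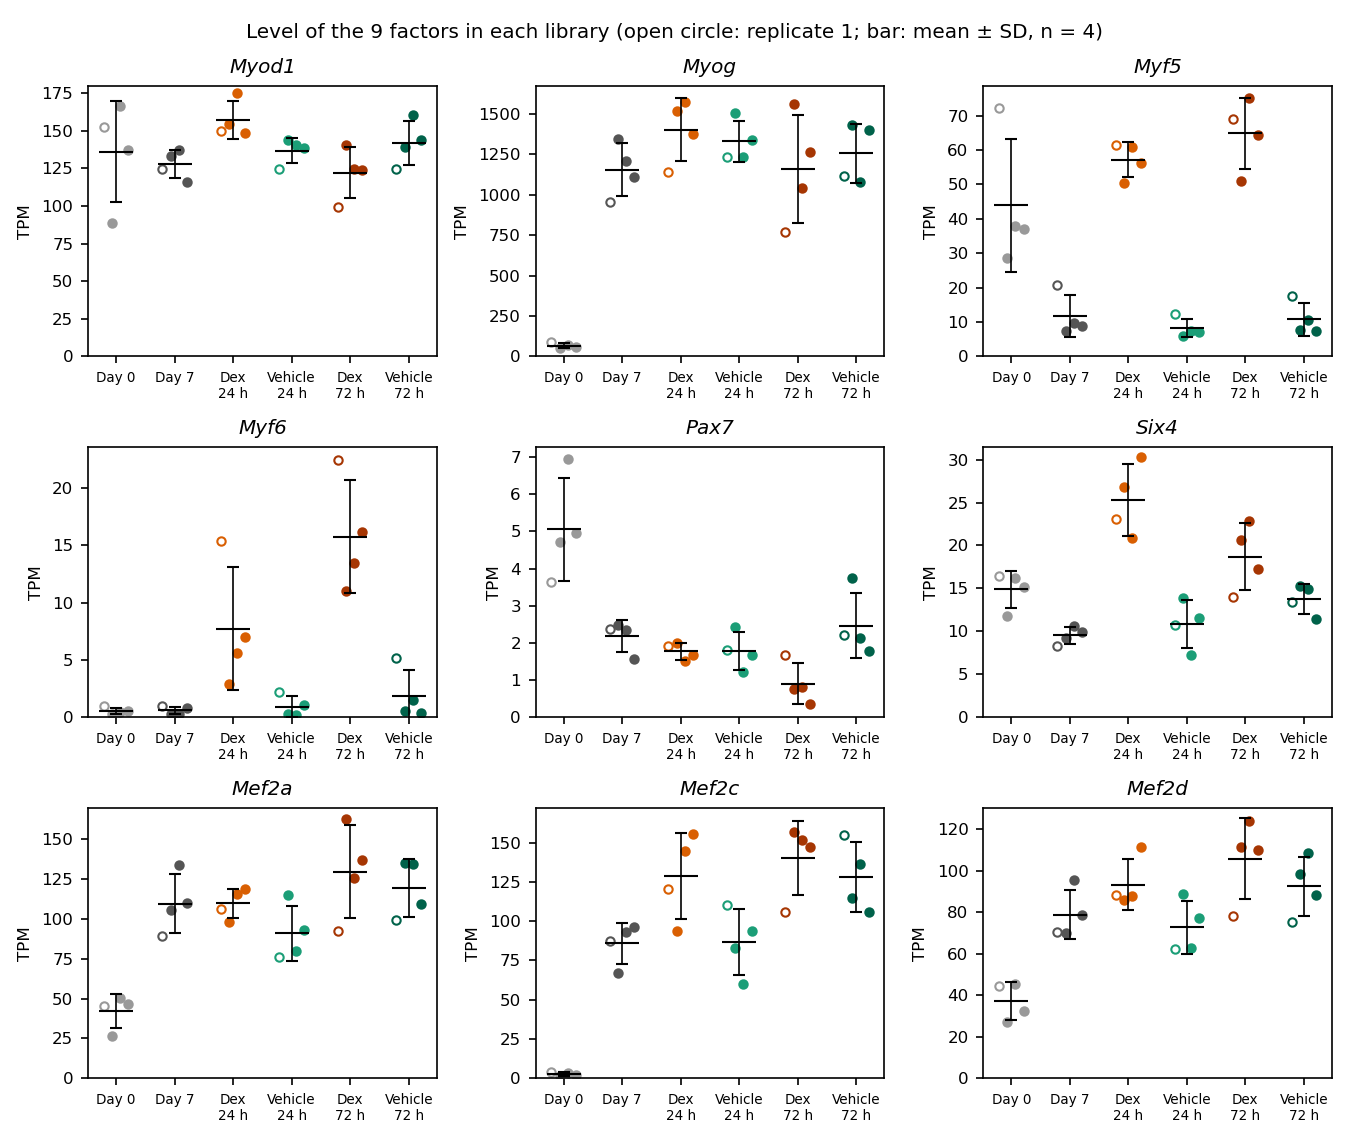
Level of each of the 9 genes in TPM (linear axis from 0) in every library, by group in order of time with dexamethasone left of its vehicle; open circles are replicate 1, and black bars give the mean ± SD of 4 libraries. Myog and the 3 Mef2 genes separate day 0 from all myotubes, Myf5 and Myf6 separate dexamethasone from vehicle at both times, and Six4 does so at 24 h.

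The depth of the libraries is unknown, since neither table holds counts, and 12428 to 13030 genes per library reached 1 TPM. Tests were run with limma over 16257 genes, on a deposited table of normalised log2 values whose differences are smaller than those of log2 TPM (slopes 0.62 to 0.69). Adjusted p-values are from that fit, with a threshold of 0.05, and folds are ratios of mean TPM. Replicate 1 stood apart. Myf6 was highest in replicate 1 in 6 of 6 groups and Myf5 in 5 of 6. At 72 h, genes near 0 in the other 3 libraries of a group but at 5 TPM or more under the opposite treatment were at a median of 17.4% of that opposite level in dexamethasone replicate 1 (6 genes) and 12.8% in vehicle replicate 1 (8 genes). Among the other 72 h libraries, vehicle replicate 2 was at 80.9% (2 genes) and the rest were at 0%. These libraries had too few such genes, 1 to 3 each, for this measure. In the vehicle 24 h libraries it was 0.0831% to 0.268% (10 to 13 genes), with replicate 1 at 0.122%, and no gene qualified in the dexamethasone 24 h libraries. Whether the 72 h replicate 1 libraries share material was not tested. Results are therefore given with and without replicate 1 where they rest on it.

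Differentiation was described by day 7 myotubes against day 0 myoblasts. Of the 9 factors, 7 passed the test, beside 60.3% of all genes tested. Myog and all 3 Mef2 genes rose, which is 4 of 9 beside 30.5% of all genes, and Myf5, Pax7 and Six4 fell, which is 3 of 9 beside 29.8%. Myod1 and Myf6 did not pass. Calls were so common in this comparison that the size of each change says more than the count.

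Myog, the terminal differentiation factor (ENSMUSG00000026459), was the most abundant of the 9 in every group of myotubes. It had 954, 1342, 1210 and 1110 TPM in day 7 myotubes, against 88.0, 50.8, 69.2 and 56.8 TPM in day 0 myoblasts (replicates 1 to 4). The groups did not overlap. The means were 1154 ± 164 TPM at day 7 and 66.2 ± 16.4 TPM at day 0 (SD, n = 4 each), a 17.4-fold rise (log2 difference 2.48 ± 0.11 SE, adjusted p = 4.45e-14).

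Myod1, the lineage factor long used to turn other cells into muscle (ENSMUSG00000009471), averaged 128 ± 9.36 TPM in day 7 myotubes and 136 ± 33.9 TPM in day 0 myoblasts (SD, n = 4 each). The day 0 libraries spread from 88.6 to 166 TPM and enclosed every day 7 library, which ran from 116 to 137 TPM. The difference was 0.02 ± 0.08 (adjusted p = 0.856), and on the TPM scale its 95% interval ran from -0.35 to 0.24 in log2.

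Myf5, the earliest of the family to appear in the mouse embryo (ENSMUSG00000000435), had 20.7, 7.49, 9.74 and 8.72 TPM in day 7 myotubes, against 72.3, 28.6, 38.0 and 37.0 TPM in day 0 myoblasts. Replicate 1 was the highest library of both groups, and the groups did not overlap. Myf5 fell by 1.25 ± 0.20 on the log2 scale of the table (adjusted p = 1.65e-05), and mean TPM was 3.77-fold lower, or 3.99-fold lower without replicate 1. Myf6 (ENSMUSG00000035923) was low in both groups, at 0.303 to 0.998 TPM at day 7 and 0.264 to 0.954 TPM at day 0, and did not pass (adjusted p = 0.883).

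The composition of the family changed with these levels. Myog made up 89.0% ± 1.65 of the summed TPM of the 4 myogenic factors in day 7 myotubes and 27.0% ± 2.62 in day 0 myoblasts (SD, n = 4 each). Myod1 made up 9.95% ± 1.02 at day 7 and 55.3% ± 5.70 at day 0. The share of Myf5 was 0.953% ± 0.629 at day 7 and 17.5% ± 3.94 at day 0. The sum itself was 1294 ± 164 TPM at day 7 and 247 ± 62.1 TPM at day 0, so the lower share of Myod1 went with a level inside the day 0 range.

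**Figure D2:**
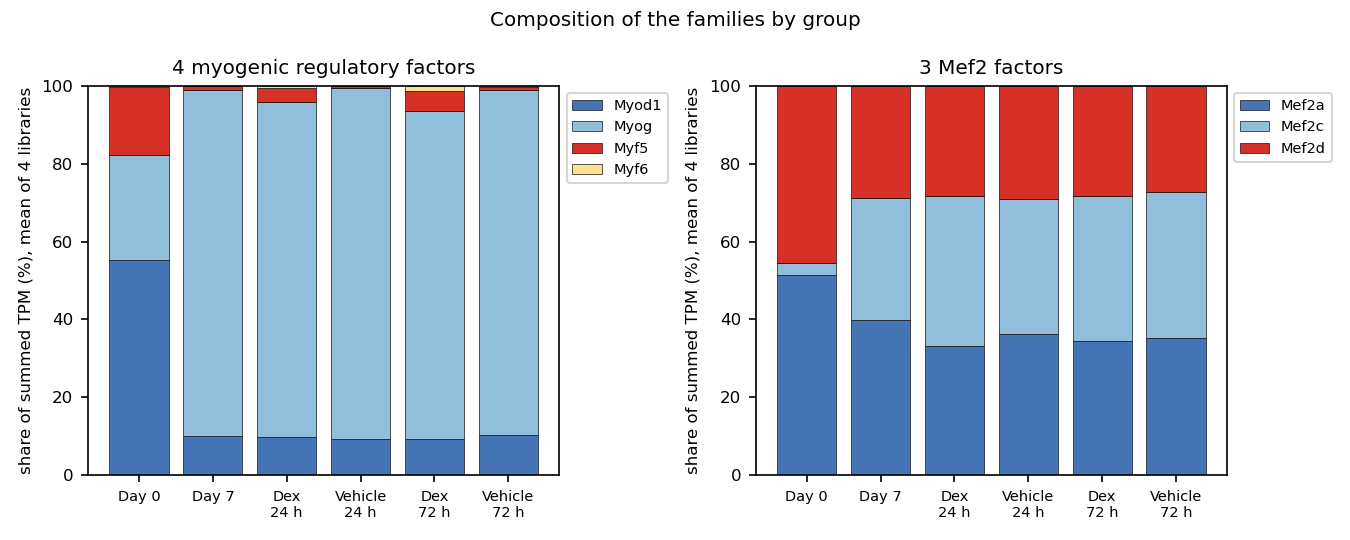
Share of the summed TPM (percent, mean of 4 libraries) taken by each of the 4 myogenic regulatory factors (left) and each of the 3 Mef2 factors (right), by group in order of time with dexamethasone left of its vehicle. Myog took 89.0% of the first sum at day 7 and 27.0% at day 0, and Mef2c took 31.4% of the second sum at day 7 and 3.14% at day 0.

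Pax7, the satellite cell factor (ENSMUSG00000028736), had 2.37, 2.47, 2.35 and 1.56 TPM in day 7 myotubes, against 3.63, 4.71, 6.94 and 4.96 TPM in day 0 myoblasts. It was low in both groups, which did not overlap. Mean TPM was 2.31-fold lower at day 7 (log2 difference -0.79 ± 0.21, adjusted p = 0.00219). Markers of other cell types moved as well. Of 14 tested satellite and reserve cell markers 5 fell and 2 rose. Spry1 was 8.52-fold and Ncam1 7.93-fold higher, while Cd34, a surface protein of progenitors, was 5.62-fold and Met 3.84-fold lower. The list summed to 721 to 1028 TPM at day 7 and 482 to 755 TPM at day 0. Of 8 tested fibroblast markers 5 rose and 1 fell, with Mfap5, a microfibril protein, 35.8-fold higher and Dcn, decorin, 5.07-fold higher, and that list summed to 2414 to 3294 TPM at day 7 and 1228 to 1822 TPM at day 0. Their part in the levels of the 9 factors was not tested.

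Six4 (ENSMUSG00000034460) averaged 9.54 ± 0.995 TPM in day 7 myotubes and 14.9 ± 2.12 TPM in day 0 myoblasts (SD, n = 4 each), 1.56-fold lower at day 7 with no overlap of the libraries (log2 difference -0.37 ± 0.10, adjusted p = 0.00214). Of the relatives, Eya1 and Eya4, coactivators of Six4, were 2.80-fold and 1.32-fold lower at day 7 (adjusted p = 6.78e-06 and 0.0300). Pax3, Six2, Eya2, Dach1, Dach2 and Mef2b stayed under 1 TPM in every library. In the reference annotation Myf5 lies beside Myf6 on chromosome 10, with no protein-coding gene between them.

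Mef2c (ENSMUSG00000005583) had the largest rise of the 9. It had 87.5, 67.0, 93.4 and 96.0 TPM in day 7 myotubes, against 4.27, 1.34, 3.11 and 1.98 TPM in day 0 myoblasts. This was a 32.1-fold rise with all day 7 libraries far above those of day 0 (log2 difference 2.78 ± 0.13, adjusted p = 8.83e-14).

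Mef2a (ENSMUSG00000030557) averaged 110 ± 18.3 TPM in day 7 myotubes and 42.3 ± 10.6 TPM in day 0 myoblasts, a 2.60-fold rise (adjusted p = 2.80e-08). Mef2d (ENSMUSG00000001419) averaged 78.7 ± 11.9 TPM in day 7 myotubes and 37.3 ± 9.08 TPM in day 0 myoblasts, a 2.11-fold rise (adjusted p = 8.10e-08). Mef2a and Mef2d were already well expressed at day 0, and Mef2c joined them: its share of the summed Mef2 TPM was 31.4% ± 3.72 at day 7 and 3.14% ± 0.983 at day 0.

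The genes that these factors act on moved as follows. All 30 listed targets of the myogenic and Mef2 factors rose, with a median log2 difference of 2.48 beside 0.01 over all genes tested. Cav3, a protein of the muscle plasma membrane, averaged 132 ± 16.2 TPM at day 7 and 0.596 ± 0.408 TPM at day 0, and Myl4, an embryonic myosin light chain, averaged 2271 ± 266 TPM at day 7 and 18.0 ± 4.24 TPM at day 0. All 15 listed cell cycle genes fell (median -2.50). Their summed TPM was 208 to 446 at day 7 and 1650 to 1827 at day 0.

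Of 15 tested partners and inhibitors of the myogenic factors, 4 rose and 8 fell. Msc, or musculin, a repressor of E-box genes, was 9.98-fold lower at day 7 (1.42 ± 0.564 TPM against 14.2 ± 4.99 TPM). Twist2, which restrains Mef2 and the myogenic factors, was 7.28-fold lower, and Id3, which sequesters E proteins, was 4.09-fold lower. Mdfi, an inhibitor that binds the myogenic factors themselves, was 3.74-fold higher. Of 17 tested Mef2 cofactors and signal inputs 5 rose and 7 fell, among them Smyd1, a muscle methyltransferase, at 35.8 ± 3.68 TPM at day 7 and 4.09 ± 1.09 TPM at day 0. None of 10 chromatin cofactors of Myod1 rose and 6 fell, led by Suv39h1, a histone H3 lysine methyltransferase (2.80-fold lower).

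Dexamethasone was compared with vehicle at 24 h. Myf5, Myf6 and Six4 rose, which is 3 of the 9 beside 13.2% of all genes called higher, and none fell, beside 12.2% called lower. In both directions together 25.4% of the genes tested were called. The other 6 factors did not pass. Exposure was visible in known glucocorticoid receptor targets, with Fkbp5 at 175 ± 34.6 TPM under dexamethasone and 10.2 ± 1.96 TPM under vehicle.

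Myf5 had 61.4, 50.3, 60.8 and 56.2 TPM in dexamethasone 24 h libraries, against 12.2, 6.03, 7.40 and 7.21 TPM in vehicle 24 h libraries. Every treated library was above every vehicle library, and replicate 1 was again the highest of each group. The rise was 6.96-fold (log2 difference 1.85 ± 0.20, adjusted p = 8.02e-07), or 8.10-fold without replicate 1. Myf5 then made up 3.57% ± 0.666 of the myogenic factors' TPM under dexamethasone and 0.567% ± 0.224 under vehicle.

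Myf6 had 15.4, 2.92, 5.61 and 6.98 TPM in dexamethasone 24 h libraries, against 2.17, 0.331, 0.187 and 1.05 TPM in vehicle 24 h libraries. The lowest treated library was just above the highest vehicle library, and replicate 1 stood well above the other 3 in both groups. Mean TPM was 8.26-fold higher (log2 difference 2.10 ± 0.46, adjusted p = 0.0019), or 9.87-fold higher without replicate 1.

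**Figure D3:**
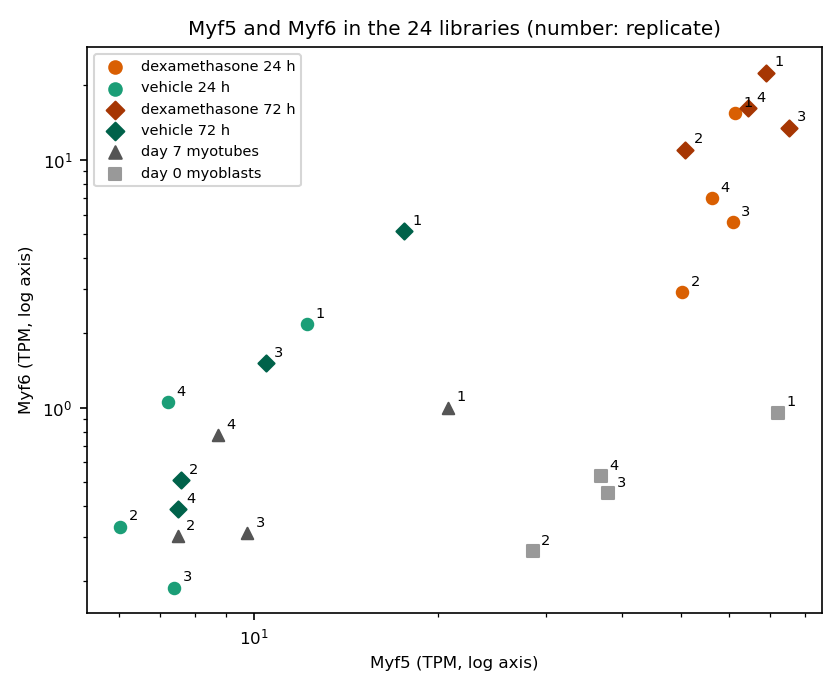
Myf5 against Myf6 in TPM (both axes logarithmic) in the 24 libraries; colour and shape give the group and the number beside each point the replicate. Dexamethasone libraries lie at the upper right, at 50.3 to 75.1 TPM of Myf5, day 0 libraries have high Myf5 with Myf6 under 1 TPM, and replicate 1 has the highest Myf6 of each group.

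Six4 had 23.1, 26.9, 20.9 and 30.3 TPM in dexamethasone 24 h libraries, against 10.8, 13.9, 7.25 and 11.6 TPM in vehicle 24 h libraries. The groups did not overlap, and the rise was 2.32-fold (log2 difference 0.79 ± 0.10, adjusted p = 3.26e-06). The coactivator Eya4 averaged 26.5 ± 4.99 TPM under dexamethasone and 17.2 ± 2.74 TPM under vehicle at 24 h, a 1.53-fold rise (adjusted p = 0.00443).

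Mef2c was at the edge of the threshold. It had 120, 93.9, 145 and 156 TPM in dexamethasone 24 h libraries, against 110, 82.8, 59.9 and 93.9 TPM in vehicle 24 h libraries, higher in 4 of 4 same-numbered pairs although the groups overlapped. The 1.48-fold difference had an adjusted p = 0.0624 without pairing and 0.0444 when same-numbered libraries were treated as blocks. With 1 library left out it ran from 0.0176 (without vehicle 24 h replicate 1) to 0.246, and passed in 1 other such fit (0.0226 without dexamethasone 24 h replicate 2). On log2(TPM + 0.1) it was 0.116. The result rested in part on replicate 1. Without all replicate 1 libraries, a fit chosen after seeing the data, the adjusted p was 0.0147. The difference was then 1.67-fold, with the groups still overlapping. Without the replicate 1 libraries at 72 h alone the adjusted p was 0.0438.

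Myog averaged 1402 ± 193 TPM in dexamethasone 24 h libraries and 1330 ± 128 TPM in vehicle 24 h libraries, with an interval from -0.32 to 0.46 in log2 TPM. Myod1 averaged 157 ± 12.5 TPM under dexamethasone and 137 ± 8.60 TPM under vehicle (interval -0.10 to 0.49). Its TPM were higher in 4 of 4 same-numbered pairs with no overlap of the groups, at 149 to 175 TPM under dexamethasone and 124 to 144 TPM under vehicle, while the test gave an adjusted p = 0.574. The difference was 0.20 in log2 TPM, beside a median of 0.08 over tested genes with a mean of at least 1 TPM. Pax7 averaged 1.77 ± 0.222 TPM under dexamethasone and 1.78 ± 0.503 TPM under vehicle (interval -0.62 to 0.66). Mef2a and Mef2d averaged 110 and 93.3 TPM under dexamethasone and 91.1 and 72.8 TPM under vehicle, with adjusted p of 0.388 and 0.128. The intervals are wide for Pax7, which is near 2 TPM, and narrower for the abundant factors. Of 14 tested markers of satellite and reserve cells, 5 fell and 2 rose at 24 h. Heyl, a Notch target, was 2.54-fold lower, and Peg3 was 2.57-fold higher. The list summed to 936.5 to 1236 TPM under dexamethasone and 793 to 1049 TPM under vehicle. Of 8 tested fibroblast markers 3 fell and 2 rose, and that list summed to 1776 to 1926 TPM under dexamethasone and 2232 to 3445 TPM under vehicle.

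**Figure D4:**
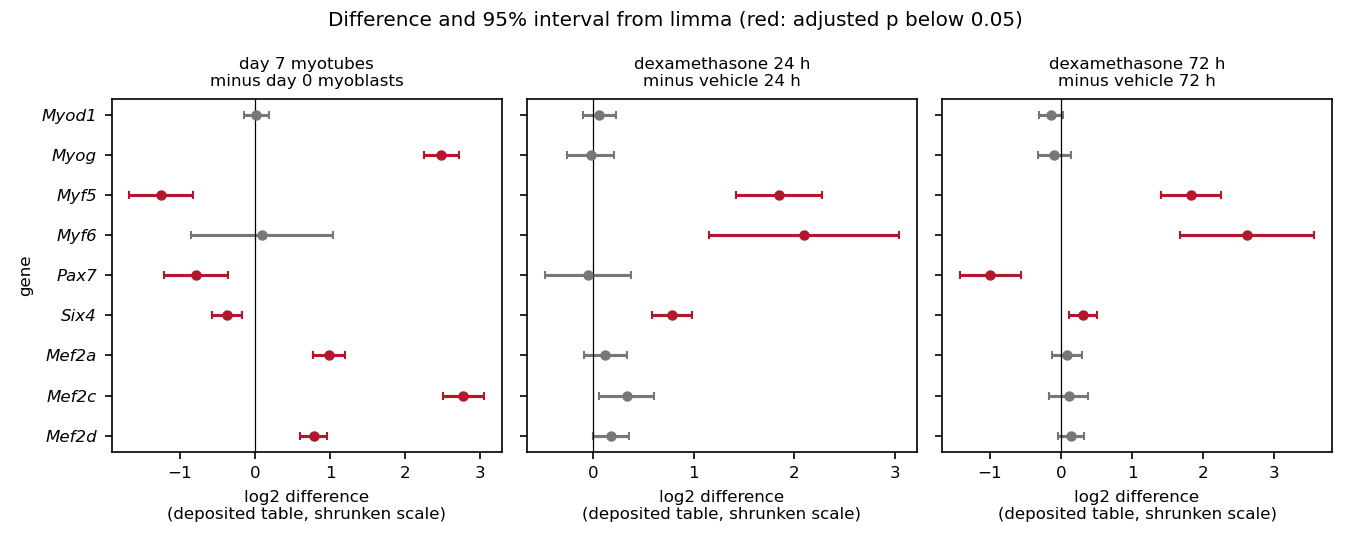
Difference in the deposited log2 values with its 95% interval from limma for each of the 9 genes, in 3 comparisons; red marks an adjusted p below 0.05. Myf5 and Myf6 lie to the right under dexamethasone at both times, and Pax7 lies to the left at 72 h.

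Among 30 target genes 1 rose at 24 h and none fell, with a median difference of 0.01 beside -0.01 over all genes tested. The 1 was Rb1, the retinoblastoma protein that holds muscle cells out of the cell cycle, at 44.6 ± 7.55 TPM under dexamethasone and 31.7 ± 2.97 TPM under vehicle. No cell cycle gene was called in either direction. Of the partners and inhibitors 4 rose and 3 fell. Id3 was 3.93-fold higher (299 ± 37.9 TPM under dexamethasone against 76.1 ± 11.4 TPM under vehicle, adjusted p = 0.000399), and Twist2 was 3.38-fold higher. Of the Mef2 cofactors and inputs 6 rose and none fell, led by Mapk14, the p38 alpha kinase, at 56.0 ± 4.04 TPM under dexamethasone and 26.1 ± 0.807 TPM under vehicle (adjusted p = 4.97e-10). Of the chromatin cofactors 2 rose and 1 fell.

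At 72 h the comparison of dexamethasone with vehicle gave 3 rises among the 9, again of Myf5, Myf6 and Six4, beside 15.2% of all genes, and 1 fall, of Pax7, beside 15.2%. In both directions together 30.3% of the genes tested were called. The 72 h and 24 h comparisons have no library in common.

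Myf5 had 69.0, 50.8, 75.1 and 64.4 TPM in dexamethasone 72 h libraries, against 17.6, 7.58, 10.4 and 7.49 TPM in vehicle 72 h libraries. The groups did not overlap. The rise was 6.01-fold (log2 difference 1.83 ± 0.20, adjusted p = 1.14e-06), or 7.46-fold without replicate 1. Its share of the myogenic factors' TPM was 5.11% ± 1.88 under dexamethasone and 0.798% ± 0.430 under vehicle.

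Myf6 had 22.4, 11.0, 13.5 and 16.2 TPM in dexamethasone 72 h libraries, against 5.14, 0.51, 1.51 and 0.390 TPM in vehicle 72 h libraries. Vehicle replicate 1 was more than 3 times any other vehicle library. Mean TPM was 8.36-fold higher under dexamethasone (log2 difference 2.61 ± 0.46, adjusted p = 0.000151). Without replicate 1 the means were 13.5 TPM under dexamethasone and 0.802 TPM under vehicle, 16.9-fold higher. The highest mean of Myf6 in the study came with dexamethasone at 72 h, still far under the 122 TPM of Myod1 and 1159 TPM of Myog in the same libraries.

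Pax7 had 1.66, 0.754, 0.827 and 0.370 TPM in dexamethasone 72 h libraries, against 2.21, 3.75, 2.13 and 1.78 TPM in vehicle 72 h libraries. Replicate 1 was the highest of the treated libraries and came close to the lowest vehicle library. Mean TPM was 2.73-fold lower under dexamethasone (log2 difference -0.99 ± 0.21, adjusted p = 0.000807), or 3.93-fold lower without replicate 1. Of the 14 satellite and reserve cell markers, 7 fell and 2 rose at 72 h. Heyl was 6.54-fold lower, and Sdc4, syndecan 4, was 2.13-fold higher. The summed TPM of that list was 1072 to 1547 under dexamethasone and 1048 to 1311 under vehicle, and Calcr, which marks quiescent satellite cells, was at 0 in every library. Among 8 tested fibroblast markers 6 fell and 1 rose, and the list summed to 367 to 1725 TPM under dexamethasone and 2413 to 3707 TPM under vehicle, with Tcf21 at 0 throughout. The part of these cells in the level of Pax7 was not tested.

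Six4 had 14.0, 20.6, 22.9 and 17.3 TPM in dexamethasone 72 h libraries, against 13.4, 15.3, 14.9 and 11.5 TPM in vehicle 72 h libraries. The groups overlapped through treated replicate 1. The 1.36-fold rise (log2 difference 0.31 ± 0.10, adjusted p = 0.0187) was a thin call: on log2(TPM + 0.1) the adjusted p was 0.0876. Leaving out 1 library also ended it in 3 of 8 such fits. The adjusted p was 0.0594 and 0.0747 without dexamethasone replicate 2 or 3 and 0.0724 without vehicle replicate 4. Without both replicate 1 libraries at 72 h the call held, with an adjusted p of 0.00784. The rise was then 1.46-fold, with no overlap of the groups. Among the relatives, Six5 and Eya1 fell and Eya3 rose.

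The Mef2 genes and the 2 abundant myogenic factors did not pass at 72 h. Mef2a averaged 130 ± 29.1 TPM under dexamethasone and 120 ± 18.2 TPM under vehicle. Mef2c averaged 140 ± 23.5 TPM under dexamethasone and 128 ± 22.1 TPM under vehicle. Without replicate 1 the Mef2c means were 152 TPM under dexamethasone and 119 TPM under vehicle, 1.28-fold higher with no overlap. Mef2c still did not pass, with adjusted p of 0.150 without the 72 h replicate 1 libraries and 0.105 without all replicate 1 libraries. Mef2d averaged 106 ± 19.5 TPM under dexamethasone and 92.6 ± 14.2 TPM under vehicle. Replicate 1 was the lowest dexamethasone library for all 3. It was the lowest vehicle library for Mef2a and Mef2d and the highest for Mef2c. Mef2d had an adjusted p = 0.225, which was 0.0423 without dexamethasone replicate 1 but 0.135 without replicate 1 of both 72 h groups, and 0.498 without vehicle replicate 1 alone. Myog averaged 1159 ± 337 TPM under dexamethasone and 1255 ± 185 TPM under vehicle (interval -0.54 to 0.24 in log2 TPM). Myod1 averaged 122 ± 17.0 TPM under dexamethasone and 142 ± 14.7 TPM under vehicle (interval -0.52 to 0.07).

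At 72 h 6 of the 30 target genes rose and 3 fell, or 10 and 2 without the replicate 1 libraries at 72 h. Tnnt2, the cardiac form of troponin T also made by young myotubes, was 1.80-fold higher (1597 ± 247 TPM under dexamethasone against 890 ± 144 TPM under vehicle), Atp2a1, the calcium pump of fast fibres, was 2.18-fold higher, and Myh3, the embryonic myosin heavy chain, was 1.66-fold lower. All 15 cell cycle genes rose, with a median of 1.96 beside 0.01 over all genes tested, or 14 of 15 without the replicate 1 libraries at 72 h. The cell cycle list summed to 360 to 821 TPM under dexamethasone and 110 to 177 TPM under vehicle. Of the partners and inhibitors 3 rose and 8 fell, with Mdfi 3.97-fold lower and Twist2 2.27-fold higher. Of the Mef2 inputs 2 rose and 3 fell, and Mapk14 was 1.72-fold higher. Of the chromatin cofactors 2 rose and 2 fell. Adipocyte markers rose under dexamethasone at both times where they were tested: 3 of 3 at 24 h and 2 of 3 at 72 h, with Fabp4, a fatty acid carrier, at 75.2 ± 11.9 TPM under dexamethasone and 2.15 ± 3.99 TPM under vehicle at 72 h, while Adipoq, Plin1, Lep and Cidec stayed under 0.2 TPM. The part of these marker changes in the levels of the 9 factors was not tested.

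The change of the dexamethasone response from 24 h to 72 h was tested directly. Pax7 and Six4 were lower in the later response, which is 2 of 9 beside 5.77% of all genes called lower, and none was higher, beside 5.56%. In all, 11.3% of genes were called. For Pax7 the difference between the responses was -0.94 ± 0.29 (adjusted p = 0.0383) and for Six4 it was -0.48 ± 0.14 (adjusted p = 0.0246). Both calls were thin: neither passed when genes of low value were kept or when only the 4 groups concerned were fitted. Without the replicate 1 libraries at 72 h, Six4 did not pass (adjusted p = 0.0606), while Pax7 did (-1.18, adjusted p = 0.00368). Both passed on log2(TPM + 0.1), with adjusted p of 0.0324 for Pax7 and 0.0424 for Six4. With the replicate block both passed as well (0.0217 and 0.0260). Leaving out any 1 library gave adjusted p from 0.00212 to 0.0976 for Pax7 and from 0.0127 to 0.0601 for Six4. The Pax7 call was lost in 10 of 16 such fits: without dexamethasone 24 h replicate 1, 2 or 4, dexamethasone 72 h replicate 2, 3 or 4, vehicle 24 h replicate 3 or 4, or vehicle 72 h replicate 1 or 2. The Six4 call was lost in 5 of 16: without dexamethasone 24 h replicate 2 or 4, dexamethasone 72 h replicate 4, vehicle 24 h replicate 3 or vehicle 72 h replicate 2. For Myf5 the responses differed by -0.02 in the deposited log2 values, with an interval from -0.62 to 0.58. For Myf6 they differed by 0.52, with an interval from -0.82 to 1.86. In log2 TPM the intervals were wider, from -1.10 to 0.74 for Myf5 and from -1.53 to 2.48 for Myf6.

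Neither comparison of myotubes kept without dexamethasone moved any of the 9 past the threshold. From day 7 to vehicle 24 h, time in culture was joined by the change to medium with 1% ethanol. Between vehicle 24 h and day 7 myotubes 0 of 9 passed, beside 0.209% of all genes, and 0 had an unadjusted p under 0.05. Between vehicle 72 h and vehicle 24 h 0 of 9 passed, beside 4.36% of all genes called (2.67% higher and 1.69% lower), and 1, Mef2c, had an unadjusted p under 0.05. Mef2c had 155, 115, 136 and 106 TPM in vehicle 72 h libraries, against 110, 82.8, 59.9 and 93.9 TPM in vehicle 24 h libraries. The groups overlapped, and the adjusted p was 0.138. On log2(TPM + 0.1) none passed either.

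Set in order of their means over the 6 groups, the genes fell into a few shapes. Myog, Mef2a, Mef2c and Mef2d had day 0 at the bottom with no overlap with the next group, and every step above it was between overlapping groups. Myf5 had the 3 groups of untreated or vehicle myotubes at the bottom, at 8.21 to 11.7 TPM, and day 0 and both dexamethasone groups above, at 43.9 to 64.8 TPM. Its dexamethasone levels overlapped those of day 0 myoblasts through day 0 replicate 1 alone. Without replicate 1 they were 50.3 to 60.8 TPM at 24 h and 50.8 to 75.1 TPM at 72 h, against 28.6 to 38.0 TPM at day 0. Myf6 ran from day 0 at 0.549 TPM to dexamethasone 72 h at 15.8 TPM with each neighbouring pair overlapping, in part through replicate 1. Pax7 ran from dexamethasone 72 h at 0.904 TPM to day 0 at 5.06 TPM, Six4 from day 7 at 9.54 TPM to dexamethasone 24 h at 25.3 TPM, and Myod1 from 122 to 157 TPM, all with neighbours that overlapped.

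The genes whose normalised values were most like each factor over the 24 libraries, among 12737 genes, were named by Pearson correlation as a description; the libraries fall into groups, which set most of each value. For Myog these were Cdkn1a, the cell cycle inhibitor p21 (r = 0.991), Cav3 (r = 0.990) and 9430073C21Rik (r = 0.990). For Mef2c they were Unc45b, a myosin chaperone (r = 0.992), and Camk2b, a calcium- and calmodulin-dependent kinase (r = 0.991). For Myf5 they were Trim24, a nuclear receptor cofactor (r = 0.964), Plin4, a lipid droplet protein (r = 0.959), and Errfi1, an inhibitor of EGF receptor signalling (r = 0.952). Myf6 was most like Dupd1, Wdr44 and Mlip (r = 0.959, 0.954 and 0.953), and Six4 most like Sgk1, a serum- and glucocorticoid-regulated kinase, Gnao1 and Il6ra (r = 0.923, 0.921 and 0.918). Mef2a had Erbb3 first (r = 0.969), Mef2d Neurl1a (r = 0.971) and Pax7 Ddx58 (r = 0.931). Myod1, the gene with the flattest levels, had the weakest match, Brap (r = 0.770).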

How the data were processed

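RNA from C2C12 cells was sequenced in 24 libraries made with a stranded kit for polyadenylated RNA, per the labels' protocols. Per the submitters' processing notes, the build was GRCm39 and the tools named were kallisto 0.51.1, Salmon and DESeq, without their roles. The authors deposited TPM, which sums to 1000000 per library, and a second table on a log2 scale, normalised between libraries; the method is not given in the sources used here. The design had assumed normalised counts; these values run from -2.33 to 20.06, so limma-trend was used. Depth is unknown. Genes whose value, as a power of 2, reached 10 in 4 libraries were tested (16257 of 48544; all 9 factors did so in every library). One limma 3.58.1 fit (R 4.3.3) held all 24 libraries with 1 mean per group, and p-values were adjusted by Benjamini-Hochberg over all genes tested. It was tested on simulated data. Promoters and gene neighbours came from RefSeq on GRCm38.p6, and the symbols Mymk and Mymx were matched by identifier.

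Same-numbered libraries deviated together (correlation over 0.1 in every pair) for day 7 against day 0 and for dexamethasone against vehicle at both times, with values of 0.117 to 0.391. Numbers were therefore taken to pair the samples there, in counts of pairs. The replicate block was fitted over all 24 libraries at once, so it also tied the remaining groups by number. The main fit and its adjusted p-values did not use the pairing. Between the other groups same-numbered libraries did not deviate together in every pair (-0.249 to 0.565). Alternatives were TPM with a pseudocount of 0.1 or 1, other filters, no trend, only the groups compared, a replicate block, and fewer libraries. Medians in log2 TPM were taken over tested genes with a mean of at least 1 TPM. TPM moved this median by -0.11 for day 7 against day 0 and by 0.08 for dexamethasone against vehicle at 24 h. It moved by 0.14 for vehicle 72 h against 24 h and by -0.12 for the change of response. Genes named beside the 9 are relatives, the 4 called genes of a list with the largest difference or fewer, glucocorticoid targets, and the 3 most alike in pattern. Results for some genes are not reported here. The factors and lists were chosen with earlier results of these data known.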

Additional observations from a re-analysis of the deposited data

Results flagged for a closer look

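Myf5 in day 7 replicate 1 was 20.7 TPM, far above the other 3 libraries of its group (7.49 to 9.74 TPM), and replicate 1 was also the highest library for Myf5 in 4 further groups. Pax7 in day 7 replicate 4 was 1.56 TPM, below the other 3 (2.35 to 2.47 TPM). Mef2d in dexamethasone 24 h replicate 4 was 111 TPM, above the other 3 (85.6 to 88.5 TPM). These are 3 of 54 sets of 4 libraries looked at, and chance alone flags about 1 in 20. Pax7 and Six4 responded differently to dexamethasone at 72 h and at 24 h, by -0.94 and -0.48 in the deposited log2 values, in the limma test of the difference between the responses.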

How the results depend on the processing

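Of 1044 recomputed values of the 9 genes, 1012 kept their side of the threshold, 26 lost the call, 6 gained one and 0 reversed a called direction. Among the 1012, 48 values with no call in either fit changed sign. The counts of the 9 called for day 7 against day 0 and for dexamethasone at 24 h and 72 h kept within 1.5 times in each setting. For the change of response, where 2 were called, none was called with no filter or with only the groups compared (0 each), 1 without both replicate 1 libraries at 72 h and 1 without all replicate 1 libraries (chosen after seeing the data), and 0 to 2 when 1 library was left out. Over all genes, vehicle 24 h against day 7 had 34 calls, and 4 with TPM + 0.1, 5 with TPM + 1, 4 with no filter, 3 with no trend, 0 with only the groups compared, 11 without the 72 h replicate 1 libraries, 0 without all replicate 1 libraries and 0 to 328 with 1 library left out. Vehicle 72 h against 24 h had 709, and in the same order 270, 264, 94, 332, 4, 380, 5 and 2 to 1751. With the replicate block these were 109 and 1067, in groups that share only a number. Dexamethasone at 24 h had 4134, and 2706 to 4358 with 1 library left out (2706 without dexamethasone 24 h replicate 4, 2741 without vehicle 24 h replicate 3). The replicate block changed 1 call of the 9, that of Mef2c at 24 h given above, and no other. The cause of these shifts was not tested. No counts were used, so the precision that depth gives is unknown, least certain for Myf6 and Pax7, with means of 0.549 to 5.06 TPM outside dexamethasone.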
